A study of Homo sapiens with 4 samples.

Results

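The genes described here encode the enzymes that make fatty acids from acetyl units, lengthen them and put double bonds into them. They were chosen by name, as 10 listed genes: ACLY, ACSS2, ACACA, FASN, SCD, ELOVL1, ELOVL5, ELOVL6, FADS1 and FADS2. Of these, 8 had a probe set under their symbol, 1 each, among 17687 named genes. ELOVL1 and FADS1 were the other 2. They had no array signal to analyse, but their promoter windows are counted in the motif search below. The cells were DU145, an established line of castration-resistant prostate cancer. They were exposed for 48 h to vehicle, to 5 µM No.10-3, or to C-30 at 0.5 µM or 2 µM, compounds that the study describes as inhibitors of the RNA-binding protein PSF. The labels give no further detail of the vehicle, and a single line stands for the disease. RNA of each condition was read on 1 array, so no value has an error, no test was possible, and every difference below compares 2 arrays.

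Cells make new fatty acids in the cytosol. ACLY splits citrate exported from mitochondria into acetyl-CoA, and ACSS2 makes the same product from acetate. ACACA, acetyl-CoA carboxylase, turns it into malonyl-CoA, and FASN, fatty acid synthase, joins these units into palmitate. ELOVL6 lengthens palmitate to stearate, SCD desaturates stearate to oleate, and FADS1, FADS2 and ELOVL5 handle polyunsaturated chains. Many of these genes are driven by SREBP-1, the product of SREBF1, and prostate cancers often express FASN strongly.

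The promoter windows of some genes are shown first, for genes that differ in which arrays they were low on. The arrays gave 1 probe set per gene, so which start was used in these cells was not measured. RefSeq windows (GRCh38.p14, 250 bases before to 50 after a start, 300 in all) matched 9 of the 10 genes with 14 windows. FASN had none. SCD and FADS2 were low on at least 1 treated array by more than 1.5-fold, whereas ELOVL5 and ACLY hardly differed on any. The SCD window is chr10:100346983-100347282, plus strand. The window of the first FADS2 start held no match to the motifs searched and is not shown. The window of the second FADS2 start is chr11:61816154-61816453, plus strand. That of ELOVL5 is chr6:53348901-53349200, minus strand, and that of the ACLY start listed first is chr17:41918973-41919272, minus strand. The RefSeq span of ACLY runs on to 41930545, beyond both of its windows. Capitals mark matches to any motif searched, on either strand.
SCD: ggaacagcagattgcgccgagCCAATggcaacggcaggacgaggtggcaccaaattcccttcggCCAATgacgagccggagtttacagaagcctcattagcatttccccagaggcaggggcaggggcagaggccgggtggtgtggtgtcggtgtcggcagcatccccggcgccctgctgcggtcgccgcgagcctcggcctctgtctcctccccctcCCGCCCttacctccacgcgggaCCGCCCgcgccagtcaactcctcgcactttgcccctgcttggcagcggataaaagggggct
FADS2: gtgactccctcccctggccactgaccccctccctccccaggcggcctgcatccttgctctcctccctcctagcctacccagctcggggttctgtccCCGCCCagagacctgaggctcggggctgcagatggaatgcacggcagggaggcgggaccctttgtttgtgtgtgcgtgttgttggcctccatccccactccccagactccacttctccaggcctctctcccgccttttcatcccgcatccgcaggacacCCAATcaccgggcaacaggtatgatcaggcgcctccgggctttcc
ELOVL5: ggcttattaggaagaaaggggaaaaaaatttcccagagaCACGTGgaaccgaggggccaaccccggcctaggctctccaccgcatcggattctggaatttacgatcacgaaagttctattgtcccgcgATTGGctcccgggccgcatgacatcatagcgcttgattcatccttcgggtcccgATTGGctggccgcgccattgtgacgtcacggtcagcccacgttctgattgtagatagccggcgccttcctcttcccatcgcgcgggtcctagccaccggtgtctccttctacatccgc
ACLY: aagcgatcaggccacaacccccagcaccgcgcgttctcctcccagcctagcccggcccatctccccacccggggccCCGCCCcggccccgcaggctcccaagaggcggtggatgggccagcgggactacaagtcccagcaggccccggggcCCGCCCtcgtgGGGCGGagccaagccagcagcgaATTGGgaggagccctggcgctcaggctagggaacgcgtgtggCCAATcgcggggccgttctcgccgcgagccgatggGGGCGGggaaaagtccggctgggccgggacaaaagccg

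The motifs searched on both strands were the sterol response element TCACNCCAC, the E-box CACGTG, the NF-Y box CCAAT and the GC box GGGCGG. They can overlap, as GC boxes do in the first ACACA window. The NF-Y box was in 9 of the 14 windows (64.3%) and in 34.6% of all 35116 RefSeq windows. The GC box was in 11 of the 14 (78.6%) and in 45.0% of all windows. The genes' windows also had more G and C, with a median of 66.5% beside 58.7% in all windows, which was not corrected for. Windows of 1 gene can overlap, as both ACLY windows do. The E-box was found in ELOVL5 alone of the 9 genes, at 7.26% of all windows, and these letters of the sterol response element were in 0 of the 14, beside 1.13% of all. SCD and ELOVL5 each held 2 NF-Y boxes. Any link between these motifs and the array signals was not tested.

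**Figure D1:**
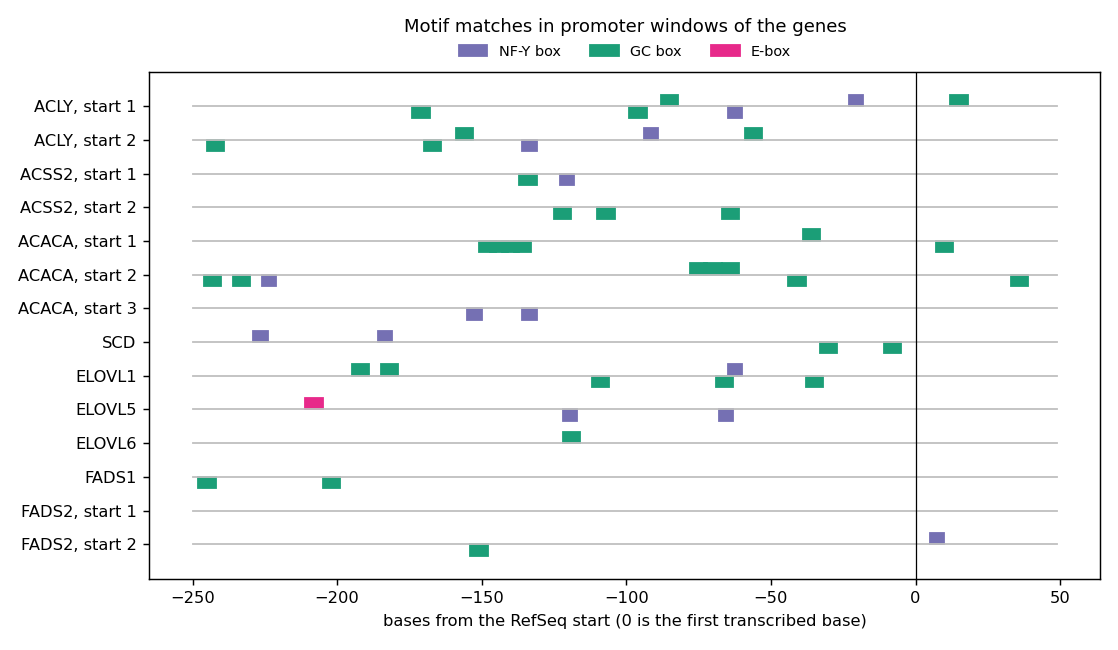
Positions of motif matches in the 14 promoter windows, in bases from the RefSeq start, with matches on the gene's sense strand drawn above each line and those on the other strand below it (the E-box reads alike on both). GC boxes (green) and NF-Y boxes (purple) lie in most windows, the E-box (pink) lies in the ELOVL5 window only, and the first FADS2 window holds none of these letters.

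The arrays were alike as a whole. The median signal of the named genes was 5.55 to 5.57 and correlations between arrays were 0.979 to 0.987. The level under which a signal is treated as background is the 95th percentile of 612 negative control probe sets, 7.06 to 7.32 depending on the array. All 8 genes were above it on all 4 arrays. Of 5 epithelial markers, KRT8, KRT18, KRT19 and EPCAM were above background on every array and CDH1 was under it on every array. EPCAM barely passed background on the vehicle array, at 7.328 beside 7.324. KLK3, KLK2 and TMPRSS2, markers of androgen-responsive cells, were under it on all 4, as were 3 of 3 adipocyte markers, ADIPOQ, PLIN1 and FABP4. Endothelial markers were under it in 3 of 3 cases, fibroblast markers in 3 of 4 (COL1A2 just passed it at 0.5 µM C-30) and leukocyte markers in 3 of 4 (CD68 passed it on every array). CD68 read 8.43 for vehicle, 9.50 for No.10-3, and 8.55 and 8.79 for the C-30 doses, and its part in the results below was not tested.

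With No.10-3, FASN and SCD were at least 2-fold lower than with vehicle, FADS2 was 1.71-fold lower, and the enzymes that supply and carboxylate acetyl-CoA differed less. In RNA of a whole culture, a lower level in every cell and a lower level in some of the cells cannot be told apart. A log2 difference of 1 is called 2-fold and one of 0.58 is called 1.5-fold, and differences are set against all genes whose higher signal of the 2 arrays reached the median of named probe sets, 5.56. The 2 genes past 2-fold lower were 2 of 8, where 1.32% of 9219 genes passed that size, and 0 of 8 passed 2-fold higher, where 4.36% of all genes did. At 1.5-fold, 3 of 8 were lower beside 8.34% of all genes. The median difference of the 8 was -0.25, beside 0.05 over all genes, and 6 of them were lower. The genes were proposed with results of these arrays known, so these shares describe the genes and are no independent evidence.

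With C-30 at 0.5 µM the genes stood lower as well, but none by 2-fold. Of 8, 0 passed 2-fold lower (2.77% of 9267 genes did) and 0 passed 2-fold higher (3.4%). FASN, ACSS2 and FADS2 passed 1.5-fold lower, 3 of 8 beside 13.4% of all genes, and FADS2 fell short of it after lowess correction, at -0.51. The median was -0.40 beside -0.04 over all genes, with ELOVL6 the single gene of the 8 on the higher side. With C-30 at 2 µM the 8 genes were spread around 0, at a median of 0.01 beside -0.06 over all genes, with 4 lower and 4 higher. The lower ones include ELOVL5 at -0.0020, which stood at 0.074, 0.16 and 0.17 after centring, lowess correction and quantile normalization. FASN alone passed 2-fold lower, 1 of 8 beside 6.15% of 9319 genes, and 0 of 8 passed 2-fold higher beside 4.67%. FASN, FADS2 and ACACA passed 1.5-fold lower, where 18.5% of all genes did. Of these calls, that of FASN held under every scaling run. ACACA fell short of 1.5-fold after centring, lowess correction and quantile normalization (-0.52, -0.47 and -0.48), and FADS2 after the last 2 (-0.54 and -0.50). These 3 comparisons share the vehicle array, so a high or low reading there enters each of them.

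**Figure D2:**
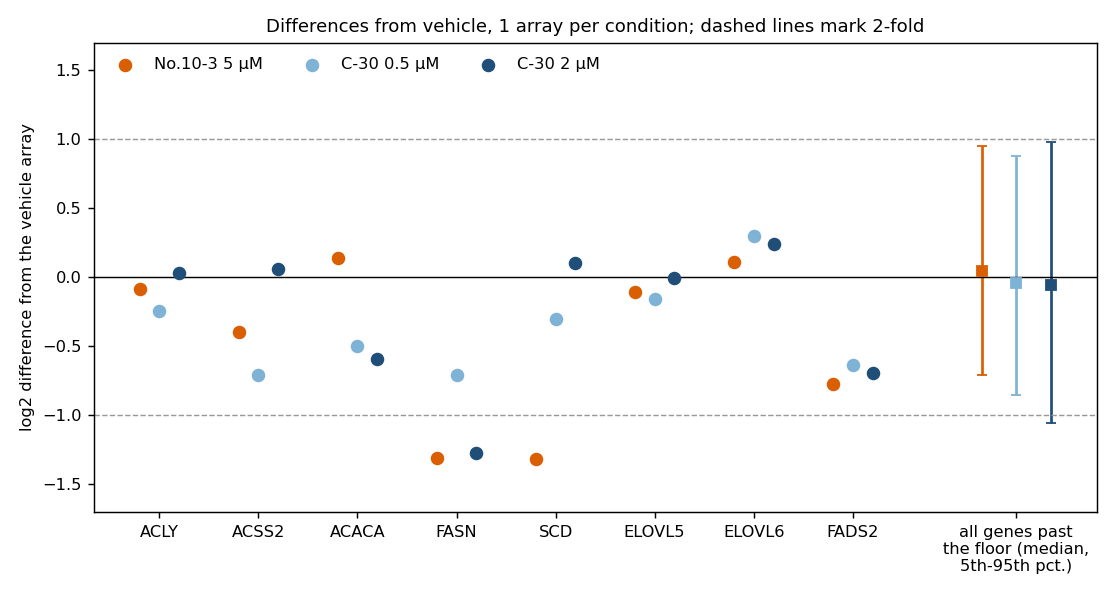
Log2 difference of each of the 8 genes from the vehicle array, 1 point per treated array, with the median and the 5th to 95th percentile of all genes past the signal floor at the right. FASN lies past the 2-fold line on the arrays of No.10-3 and of 2 µM C-30, SCD on that of No.10-3 only, and FADS2 lies between -0.64 and -0.77 on all 3.

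The supply of acetyl-CoA was described by ACLY and ACSS2. ACLY (chromosome 17, 41866917 to 41930545) had log2 signals of 15.12 on the vehicle array, 15.04 on the No.10-3 array, and 14.88 and 15.15 on the arrays of 0.5 and 2 µM C-30. Its 4 values lay close together, with differences from vehicle of -0.08, -0.24 and 0.03. ACSS2 (chromosome 20, 34874989 to 34927959) had signals of 8.19, 7.79, 7.48 and 8.25 in the same order. It was low at 0.5 µM C-30, 1.63-fold under vehicle, and back at the vehicle level with the higher dose. The low reading of 7.48 lay near the background level of that array, 7.11. In the comparison at 0.5 µM, 8.62% of genes had a lower difference than ACSS2.

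ACACA, the carboxylase of the committed step, and FASN, the synthase, parted with No.10-3. ACACA (chromosome 17, 37084992 to 37406836) had signals of 10.37 with vehicle, 10.51 under No.10-3, and 9.87 and 9.78 under 0.5 and 2 µM C-30. It was lower on both C-30 arrays, by log2 differences of -0.50 and -0.59, and at 0.14 with No.10-3. About 18% of all genes lay lower than ACACA in each C-30 comparison (17.8% and 17.9%), so it was not among the extremes.

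FASN (chromosome 17, 82078338 to 82098236) had signals of 10.33 on the vehicle array, 9.03 on the No.10-3 array, and 9.63 and 9.06 on the arrays of 0.5 and 2 µM C-30. Vehicle was the highest array, and No.10-3 and the higher dose of C-30 gave nearly the same low reading. The differences of -1.31, -0.71 and -1.28 are folds of 2.47, 1.63 and 2.42. Only 0.239% of genes had a lower difference than FASN with No.10-3, against 8.61% and 2.67% with C-30 at 0.5 and 2 µM. Genes of like brightness gave the same picture: among 2082 genes within 1 log2 unit of the mean signal of FASN, 0.240%, 8.79% and 3.07% were lower. Nearly the same step in log2 units therefore had fewer genes below it with 5 µM No.10-3 than with 2 µM C-30. The differences of all genes from vehicle had robust SDs of 0.47 and 0.60 in these comparisons. The doses were not matched, so this is no comparison of the compounds.

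**Figure D3:**
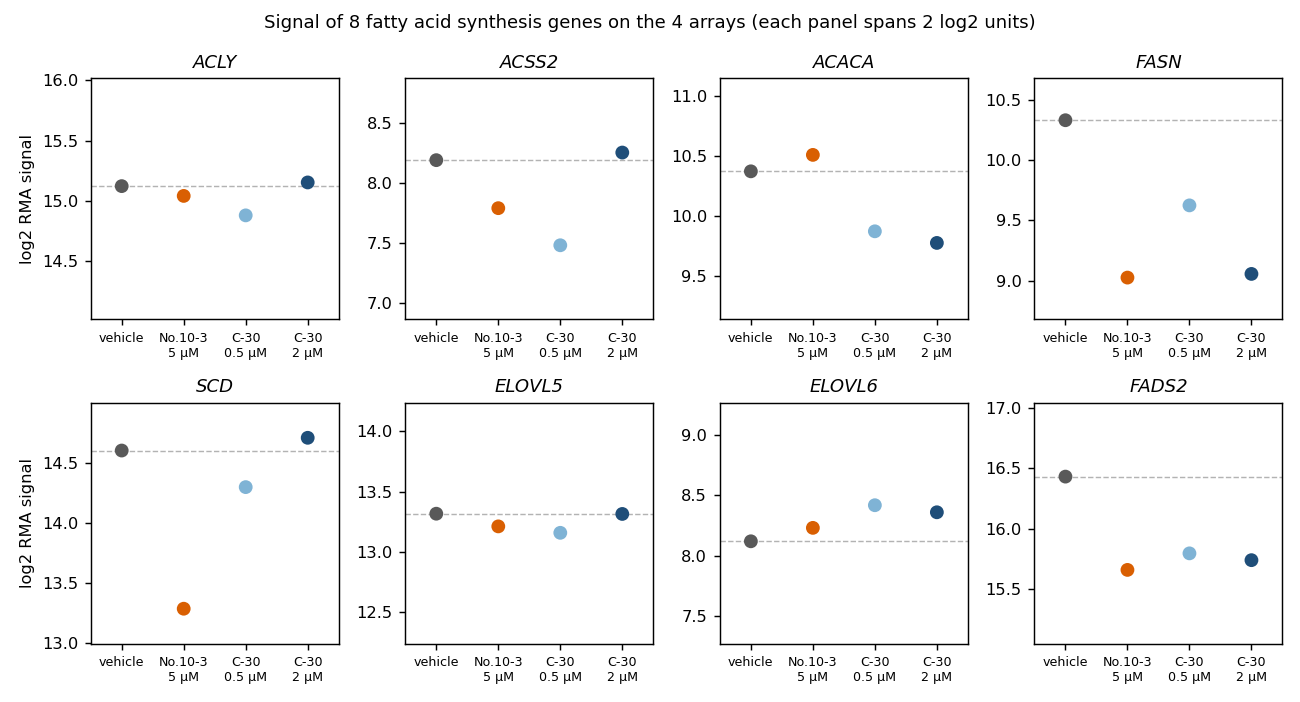
Log2 RMA signal of the 8 genes on each of the 4 arrays, 1 point per array, with a dashed line at the vehicle signal and the same span of log2 units in every panel. FASN and FADS2 are highest on the vehicle array, SCD is low on the No.10-3 array alone at 13.29, and ACLY and ELOVL5 are nearly flat.

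SCD, the desaturase that makes oleate, was low on 1 array. SCD (chromosome 10, 100347233 to 100364826) had signals of 14.60 with vehicle, 13.29 under No.10-3, and 14.30 and 14.71 under 0.5 and 2 µM C-30. It was 2.48-fold lower with No.10-3, where 0.228% of all genes and 0.481% of 208 genes of like brightness had a lower difference. On the C-30 arrays its differences from vehicle were -0.30 and 0.11, inside the bulk of genes, and -0.099 and 0.44 after quantile normalization.

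FADS2 makes the first double bond added to the essential polyunsaturated fatty acids. FADS2 (chromosome 11, 61816203 to 61867354) had signals of 16.43 on the vehicle array, 15.66 on the No.10-3 array, and 15.79 and 15.74 on the arrays of 0.5 and 2 µM C-30. The 3 treated arrays lay within a narrow range and vehicle stood above them, so the 3 differences of -0.77, -0.64 and -0.69 all rest on that 1 vehicle reading. Of all genes, 3.70%, 11.1% and 14.3% were lower in these comparisons. In RefSeq the spans of FADS1 (61799627 to 61817003) and FADS2 share 801 bases at their starts, on opposite strands, as their promoter windows show, and FADS3 (61873526 to 61892224) follows FADS2. FADS3, a related desaturase gene, had differences of -0.44, -0.51 and -0.27. The probe sequences were not used here, so signal shared between such relatives could not be assessed.

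The elongases differed little. ELOVL5 (chromosome 6, 53267404 to 53348950), which lengthens polyunsaturated chains, had signals of 13.32 with vehicle, 13.21 under No.10-3, and 13.16 and 13.31 under 0.5 and 2 µM C-30. ELOVL6 (chromosome 4, 110045846 to 110199202) had 8.12, 8.23, 8.42 and 8.36 in that order. ELOVL6 was the one gene of the 8 with its lowest value on the vehicle array, and its largest difference was 0.30. Its vehicle signal of 8.12 stands beside a background level of 7.32 on that array.

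The pair of C-30 arrays gives a comparison without the vehicle array. From 0.5 to 2 µM, 0 of 8 genes passed 2-fold lower (2.18% of 9282 genes did) and 0 passed 2-fold higher (1.39%), and ACSS2 alone passed 1.5-fold higher, 1 of 8 beside 7.89%. The genes went both ways, 4 up and 4 down, with a median of 0.05 beside -0.03. FADS2, at -0.06 among those down, changed sign after lowess correction (0.03) and quantile normalization (0.12). ACSS2 was higher by 0.77, SCD by 0.41 and ACLY by 0.27 at the higher dose, and FASN lower by a difference of -0.57. Of all genes, 96.3% had a lower difference than ACSS2 and 84.9% a lower one than SCD, while 10.6% lay under FASN. FASN and SCD took opposite signs between the doses. With No.10-3, at its own dose of 5 µM, FASN and SCD stood at the same difference. The doses of the compounds were not matched, so these values are set side by side with no comparison of the compounds.

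**Figure D4:**
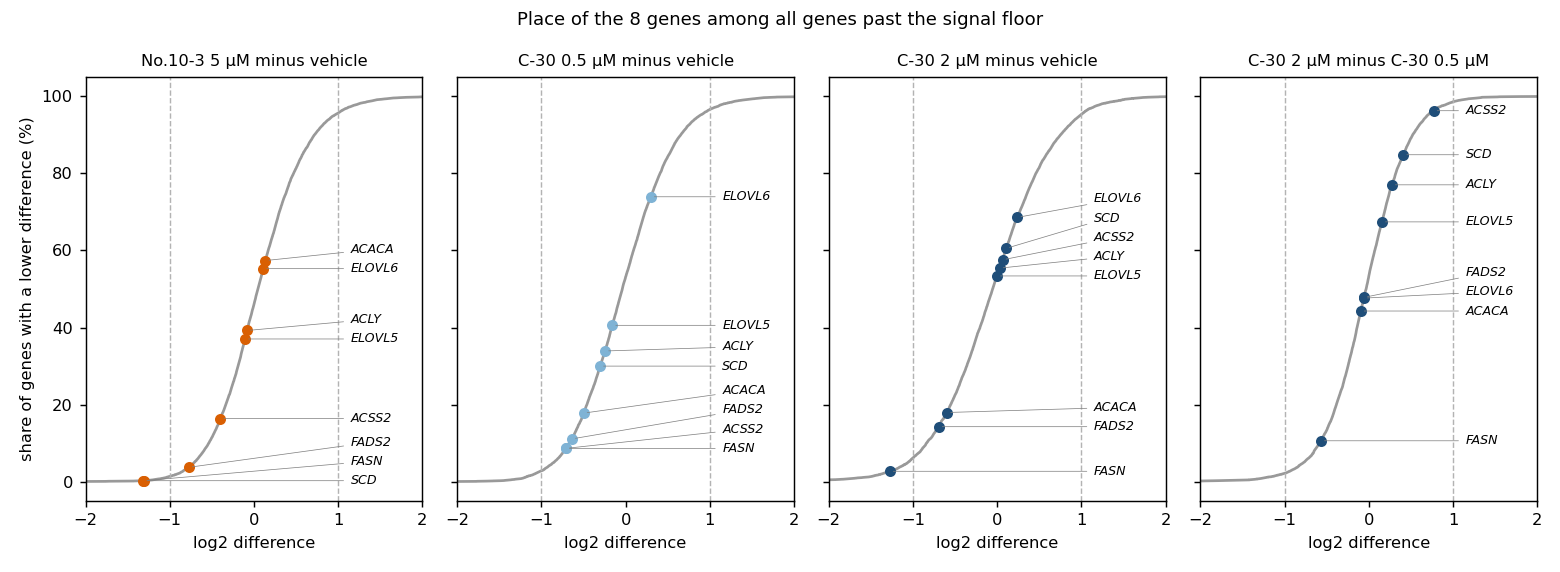
Cumulative share of genes against the log2 difference in each of 4 comparisons (gray curves), with the 8 genes marked as points at their own difference. With No.10-3, SCD and FASN sit at the foot of the curve, whereas with C-30 at 2 µM only FASN does, and between the doses ACSS2 and FASN lie nearest to opposite ends.

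The regulators of the pathway were read next. SREBF1, which encodes SREBP-1, had signals of 8.46 on the vehicle array, 7.56 on the No.10-3 array, and 7.58 and 7.06 on the arrays of 0.5 and 2 µM C-30. All treated arrays were lower, and the last lay under background, so the difference of -1.40 there is inexact. SREBF2, the sterol counterpart, differed by -1.76, -0.91 and -0.97, and SCAP, the escort protein of both, by -0.16, -0.73 and -0.90. INSIG1, which retains SCAP in the endoplasmic reticulum, differed by -0.58, 0.46 and 0.80, but its No.10-3 signal of 7.01 was under the background of that array, 7.06, so the first of these is inexact. INSIG2 (1.56, 1.55 and 1.60) and the oxysterol receptor gene NR1H3 (-0.26, 1.12 and 0.64) were under background on every array. USF1, an E-box factor, differed by -0.40, -0.90 and -0.31. Of 16 regulators past the floor, 1, 0 and 1 were at least 2-fold lower and 1, 2 and 1 at least 2-fold higher with No.10-3 and with C-30 at 0.5 and 2 µM. Over all genes, 1.32%, 2.77% and 6.15% were that much lower and 4.36%, 3.4% and 4.67% that much higher. The medians were -0.16, -0.26 and -0.34. The first was -0.26 after centring, and the last was -0.53 over the 12 genes above background on either array and -0.58 over the 11 that reached 7.90. The members past 2-fold higher were those under background.

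Supply of citrate and NADPH had 1 gene that stood lower on all treated arrays. SLC25A1, the mitochondrial citrate carrier that feeds ACLY, had signals of 9.31 with vehicle, 8.25 under No.10-3, and 8.12 and 8.23 under 0.5 and 2 µM C-30. It passed 2-fold in each comparison, at -1.06, -1.20 and -1.08, again against the same vehicle reading. It was the only one of the 6 measured genes of that list to do so. Over all genes, 1.32%, 2.77% and 6.15% were at least 2-fold lower. The NADPH-producing enzyme genes IDH1 (0.30, 0.34 and 0.74), ME1 (-0.21, 0.50 and 0.57) and PGD (0.39, -0.65 and -0.85) went different ways. ACO1 (0.27, -0.40 and -0.36) and citrate synthase, CS (0.08, -0.43 and -0.54), lay between. The list's medians were 0.18, -0.41 and -0.45. Centring put the first at 0.080 and quantile normalization the last at -0.27.

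Of the isozymes and partners of the members, 0 were past 2-fold in any comparison with vehicle. In the order No.10-3, C-30 at 0.5 µM and at 2 µM, 1.32%, 2.77% and 6.15% of all genes were that much lower. That much higher were 4.36%, 3.4% and 4.67%. The medians were 0.14 and -0.04 over 8 genes under No.10-3 and under 0.5 µM C-30, and 0.03 over 9 genes under 2 µM C-30. Over the 5 above background on either array of a comparison, the C-30 medians were -0.41 and -0.27, so the sign at 2 µM depends on the dim genes, and quantile normalization put that median at -0.0017. HSD17B12, the ketoacyl reductase of elongation, differed by -0.37, -0.61 and -0.41, and HACD2, its dehydratase, by 0.56, 0.53 and 0.09. The elongase gene ELOVL2 differed by 0.47, -0.41 and -0.65. SCD5 (0.51, 0.28 and -0.32), the other human stearoyl-CoA desaturase gene, and ELOVL7 (0.09, -0.34 and 0.52) were under background on all 4 arrays.

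Genes that put fatty acids into lipids included several that were lower with C-30. LPCAT3, which places polyunsaturated chains into phospholipids, had signals of 9.85 on the vehicle array, 9.16 on the No.10-3 array, and 8.68 and 8.66 on the arrays of 0.5 and 2 µM C-30. Its differences were -0.69, -1.17 and -1.19. LPCAT1 differed by -0.83, -0.91 and -0.98, and AGPAT2, an acyltransferase of phosphatidic acid synthesis, by -0.24, -0.75 and -1.11. GPAT4, which starts glycerolipid assembly, differed by -0.17, -0.84 and -0.59, and the phosphatidate phosphatase gene LPIN2 by -0.61, -0.61 and -0.77. ACSL4, which activates arachidonate, stood higher at 1.37, 0.88 and 1.18, but was above background on 1 array only. Of 13 genes past the floor, 0, 1 and 2 were at least 2-fold lower (1.32%, 2.77% and 6.15% of all genes were) and 1, 0 and 1 higher (4.36%, 3.4% and 4.67%), with medians of -0.17, -0.43 and -0.17. With dim genes left out, the last was -0.68 over 10 genes and the first -0.0041 over 12.

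**Figure D5:**
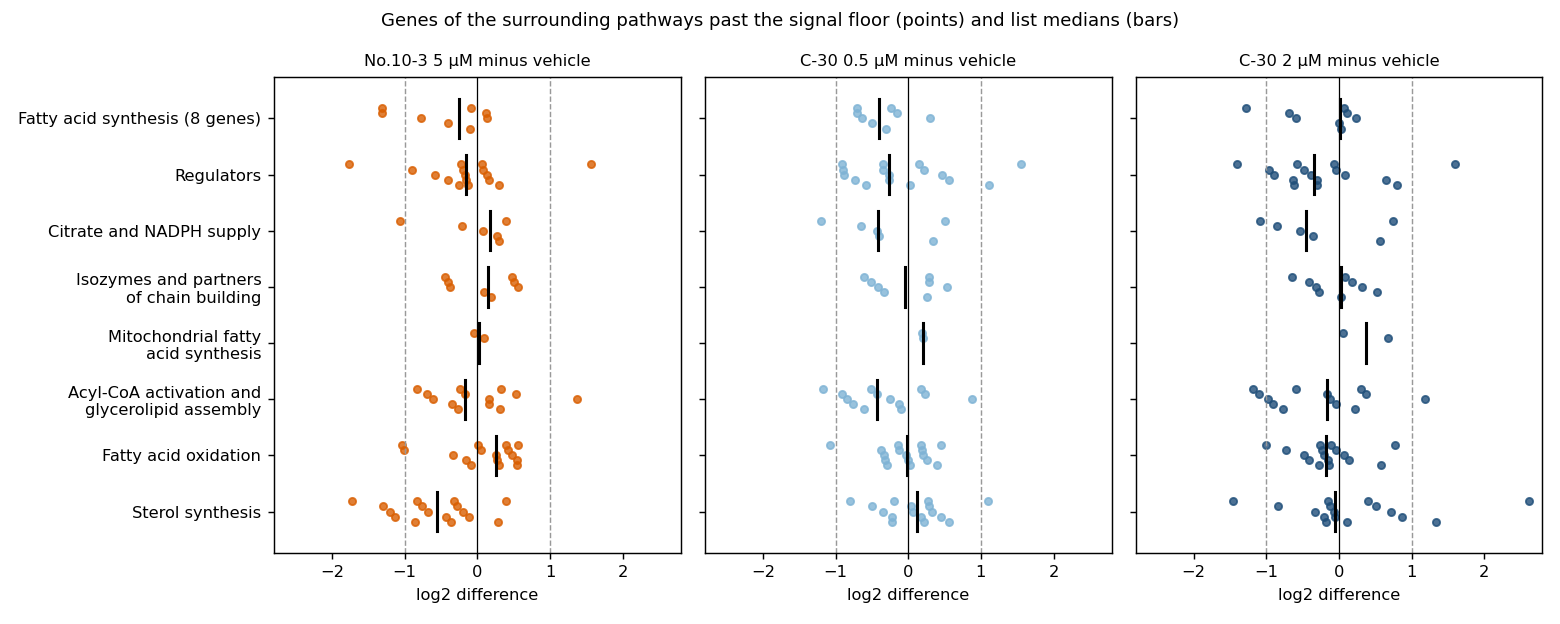
Log2 differences from vehicle of the 8 fatty acid synthesis genes and of 7 lists of surrounding pathways, 1 point per gene past the signal floor, with a bar at each list's median and dashed lines at 2-fold. With No.10-3 the sterol synthesis median lies at -0.55 and that of fatty acid synthesis at -0.25, and with C-30 at 2 µM sterol genes spread from -1.46 to 2.62.

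Sterol synthesis, the pathway most like this one in its control by SREBP proteins, differed from it on the C-30 arrays in the values of single genes. With No.10-3, 14 of 16 sterol genes were lower, 4 of them by 2-fold (1.32% of all genes were), with a median of -0.55. Under 0.5 µM C-30, 10 were higher and 6 lower, 1 and 0 of them by 2-fold (3.4% and 2.77% of all genes), with a median of 0.12. Under 2 µM C-30, 7 were higher and 9 lower, 2 and 1 of them by 2-fold (4.67% and 6.15% of all genes). The median there was -0.06, but it was above 0 under each other scaling and each stricter floor, from 0.015 after centring to 0.26 over the 12 genes that reached a signal of 7.90 on either array. HMGCS1, an early enzyme of the mevalonate pathway, differed by -1.21, 0.57 and 1.34 and IDI1, the isopentenyl diphosphate isomerase, by -0.11, 1.10 and 2.62, where FASN stood at -1.31, -0.71 and -1.28. SCD, at -1.31, -0.30 and 0.11, lay between these patterns. MSMO1 (-1.14, 0.27 and 0.72) and SQLE (-0.76, 0.33 and 0.87) took the same signs as HMGCS1. DHCR7 (-1.72, -0.80 and -0.07), NSDHL (-0.68, -0.50 and 0.11) and TM7SF2 (-0.84, -0.34 and -1.46) did not, and MVD (-1.30, 0.07 and -0.12) was under background throughout. With 1 array per condition the difference between the pathways was not tested.

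The genes whose readings ran closest to those of FASN and SCD were found by Euclidean distance over the 4 arrays, each gene centred on its own mean, among 6325 genes above background on at least 1 array. Nearest to FASN were PCNX3 (distance 0.20), GLIS2 (0.21), TCF25 (0.22), ALKBH6 (0.25) and GGA1 (0.26). Nearest to SCD were BSCL2 (0.36), the cytokine gene LIF (0.36), OSER1 (0.37), IMPA1 (0.38) and DTYMK (0.38). PCNX3 differed from vehicle by -1.42, -0.87 and -1.18, and BSCL2, which encodes the lipid droplet protein seipin, by -1.29, -0.72 and -0.10. None of the other members was among these neighbours, and 4 arrays place many genes close together.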

How the data were processed

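Total RNA of DU145 cells was labelled with biotin and read on 4 arrays, 1 per condition. The authors deposited log2 signals per probe set, which the submitters' processing notes credit to RMA and Affymetrix Expression Console 1.3.0; the log base is inferred from the values. The highest named signal, 19.66, exceeds what a scanner spans on a log2 scale, so a rescaling not given in the sources used here is possible, and folds hold on the deposited scale.

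Of 24351 probe sets, 17709 had 1 gene symbol, 0 had several and 6642 had none. Symbols were updated by Entrez identifier (all 17709 matched), and probe sets of a gene were averaged. Coordinates are RefSeq, GRCh38.p14. Differences were taken between 2 arrays for genes whose higher signal reached 5.56 and counted at 2-fold or 1.5-fold. The number of arrays limits the precision, and no test was run. Robust SDs quoted are spreads over genes or spikes within a comparison, not replicate errors. The genes, the lists, the threshold and the motifs were chosen with earlier results of these data known. Named list genes are the 4 largest differences of each comparison with vehicle, plus SREBF1, SREBF2, SCAP, INSIG1 and INSIG2; the 5 nearest genes of FASN and SCD were named by rank, leaving out uncharacterised loci. PSF is the product of SFPQ. Alternatives were other scalings, floors, folds, probe set choices and the second table of values, which differed by at most 5e-05. The counting step was checked on simulated arrays. Python 3.11.15, numpy 2.4.6, pandas 2.3.3, statsmodels 0.14.6 and matplotlib 3.10.9 were used.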

Additional observations from a re-analysis of the deposited data

How the results depend on the processing

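Each condition had 1 array, so leaving out a replicate was not possible. No paired analysis was possible because the result comes from no test. The median difference of the 8 genes moved by less than the ERCC spike spread (robust SD 0.126 to 0.271) under all scalings and floors run: it ranged from -0.35 to -0.25 with No.10-3, -0.40 to -0.27 and 0.01 to 0.14 with C-30 at 0.5 and 2 µM, and 0.05 to 0.19 between doses. FASN stayed between -1.40 and -1.31 with No.10-3 and between -1.28 and -1.17 with C-30 at 2 µM, and SCD between -1.41 and -1.25 with No.10-3. At 1.5-fold, 3 genes were lower on either C-30 array (13.4% and 18.5% of all genes were) and 1 was higher between doses (7.89%). At 2 µM the call of ACACA was lost under all 3 scalings and that of FADS2 under lowess correction and quantile normalization, and at 0.5 µM that of FADS2 under lowess correction. Quantile normalization put SCD at -0.099 and 0.44 with C-30 at 0.5 and 2 µM, and FADS2 at 0.12 between doses, a change of sign. Centring the arrays moved the median of all genes by -0.10 with No.10-3. Of the genes past 2-fold, 60.5% were then higher in place of 76.7%, and 56.5% in place of 43.2% with C-30 at 2 µM.

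Of the pathway lists, more values moved, mostly where the floor altered which genes entered or the smaller fold altered how many were counted. Glycerolipid genes had medians of -0.61 with C-30 at 0.5 µM (75th percentile floor) and -0.68 at 2 µM (that floor or the background level as floor), and -0.0041 (background level) or 0.087 (no floor) with No.10-3. Isozymes had -0.41 with C-30 at 0.5 µM and -0.27 at 2 µM under both stricter floors, a change of sign at 2 µM, and -0.23 (0.5 µM) and -0.13 (No.10-3) with no floor, a change of sign with No.10-3. Oxidation had 0.055 with No.10-3 and no floor. Sterol genes had -0.72 (No.10-3) and 0.26 (C-30 at 2 µM) with the 75th percentile floor, a change of sign at 2 µM, and mitochondrial synthesis 0.062 there from 1 gene. Counts of regulators at least 2-fold higher were 0 with both stricter floors in all 3 comparisons, and 2 were lower with No.10-3 after quantile normalization. Over all genes, 146 of 9241 were lower in that last case. Glycerolipid genes at least 2-fold higher were 0 under the 75th percentile floor with No.10-3 and under both stricter floors with C-30 at 2 µM. Past the 75th percentile floor, 202 of 4835, 156 of 4769 and 209 of 4767 genes were that much higher in the 3 comparisons. Above background, 274 of 6114, 216 of 5983 and 287 of 5957 genes were. The order is No.10-3, then C-30 at 0.5 and 2 µM. Oxidation genes at least 2-fold lower were 0 with C-30 at either dose after quantile normalization or lowess correction. Over all genes, 243 of 9276 and 236 of 9267 were lower at 0.5 µM after these 2 steps. At 2 µM, 486 of 9330 and 496 of 9319 were. The oxidation count at 2 µM was 0 after centring and 3 with no floor, beside 438 of 9410 and 642 of 17687 genes. With No.10-3 it was 1 under the 75th percentile floor, beside 51 of 4835 genes. At 1.5-fold, 8.34%, 13.4% and 18.5% of all genes were lower with No.10-3 and with the lower and higher dose of C-30. The counts lower were 2, 4 and 5 of 16 regulators and 3, 5 and 6 of 13 glycerolipid genes. For sterol genes they were 8, 1 and 2 of 16. With C-30 they were 2 and 2 of 6 supply genes, and 1 of 8 and 1 of 9 isozymes. Of 16 oxidation genes, 2 were lower at 2 µM. Higher at 1.5-fold with C-30 at 2 µM were 1405 of 9319 genes. The counts there were 3 of 16 regulators, 4 of 16 sterol genes and 1 of 6 supply genes. For oxidation and mitochondrial synthesis they were 1 of 16 and 1 of 2. At 0.5 µM, 1 of 13 glycerolipid genes was higher, where 1128 of 9267 genes were. The causes of these moves were not tested.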

Other observations

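Genes of fatty acid oxidation, which breaks down what the enzymes above build, did not move together. At least 2-fold lower were 2, 1 and 1 of 16 genes past the floor with No.10-3 and with C-30 at 0.5 and 2 µM. Over all genes, 1.32%, 2.77% and 6.15% were. In each comparison 0 of 16 were at least 2-fold higher, where 4.36%, 3.4% and 4.67% of all genes were. The medians were 0.26, -0.01 and -0.18. ACADVL, the dehydrogenase of very long chains, had signals of 10.78 with vehicle, 9.75 under No.10-3, and 9.71 and 9.77 under 0.5 and 2 µM C-30, with differences of -1.03, -1.07 and -1.01, close to the 2-fold size. CPT2, which reloads fatty acids onto CoA inside mitochondria, differed by -1.02, -0.34 and -0.49, and was under background with No.10-3. CPT1A, the entry step that malonyl-CoA inhibits, differed by 0.56, -0.32 and -0.21. ACADM, the dehydrogenase of medium chains, stood at -0.09, 0.45 and 0.77, above background on the C-30 arrays alone. ETFA (0.26, 0.39 and 0.58), ETFB (0.06, -0.37 and -0.14), ECI2 (0.55, 0.18 and -0.42) and HADH (-0.33, -0.30 and -0.73, under background) made up the rest of those named.

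Mitochondrial fatty acid synthesis, the separate route that makes lipoic acid precursors, had 2 genes past the floor. NDUFAB1, its acyl carrier protein, differed by -0.04, 0.21 and 0.06. OXSM, its ketoacyl synthase, differed by 0.09, 0.19 and 0.67 and was above background with C-30 at 2 µM only. The medians were 0.02, 0.20 and 0.37.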
